A study of Mus musculus with 6 samples.

Results

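Accessible chromatin was described at 6 genes for orphan nuclear receptors in mouse kidney: Esrra, Esrrb and Esrrg, which encode the estrogen-related receptors ERRα, ERRβ and ERRγ, and Nr2f1, Nr2f2 and Nr2f6, which encode the COUP-TF family members COUP-TFI, COUP-TFII and EAR2. Members were taken by family, and an interval was assigned to a gene when it overlapped the stretch from 3 kb upstream of the gene start to the gene end. This gave 207 of the 279569 accessible intervals of the series, at 6 of 21757 protein-coding genes. ATAC-seq, in which the Tn5 transposase cuts accessible DNA, had been run on kidney cortex from WT mice (3 libraries) and Acly cKO mice (3 libraries), all labelled as controls for treatment. By the methods, both groups carried floxed Acly alleles (fl/fl). The Acly cKO mice also carried Ksp-Cre, a transgene in which the Cdh16 promoter drives Cre in proximal and distal tubules and collecting ducts, so cells of vessels, glomeruli and stroma are not targeted. WT libraries came from batches 1 and 2 and Acly cKO libraries from batches 4 and 5, so genotype and batch cannot be told apart. Which libraries the deposited peak call pools, and whether further WT libraries of the study are among them, is not stated. The call has no column for any library. Every value below is therefore a single pooled value with no replicate error, no test was made between genotypes, and the depth of each library is unknown. In a pool of whole cortex, a site open in few cells and a site weakly open in many cells cannot be told apart.

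Nuclear receptors of this kind bind DNA without a known hormone. ERRs bind as monomers or dimers to an extended half-site and, with the PGC-1 coactivators, switch on genes of mitochondrial respiration and fatty acid oxidation, the main fuel pathway of the proximal tubule. COUP-TFs bind direct repeats of a half-site, often repress, and are known for the identity of veins and of stromal cells. EAR2 is a more divergent relative that mostly represses. The half-site of both families is AGGTCA. The ERR element searched here was TNAAGGTCA. For COUP-TFs the search was for a pair of half-sites in the same direction with 1 base between them, called DR1 below. A DR1 match does not tell which receptor would bind it. Every ERR element holds a half-site and the elements were searched on both strands. Summit positions may be displaced by the shift used in the peak call, so distances in bp from an element to a summit are approximate.

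The sequences under the strongest summits are shown first, because their base composition differs between the sites described below. Each window is 61 bases of the plus strand of GRCm39 at the highest summit of the gene or of its canonical start, with CG dinucleotides in capitals. No such window is shown for Nr2f6, and those of Nr2f1 and Nr2f2 are not at the canonical start. The Esrra window begins at the base before the outermost start and holds the summit off its centre, while the others are centred on the summit.
Esrra, start, chr19:6899337-6899397: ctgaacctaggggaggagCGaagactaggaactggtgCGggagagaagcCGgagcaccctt
Esrrb, start, chr12:86468351-86468411: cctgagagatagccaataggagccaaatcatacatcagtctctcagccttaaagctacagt
Esrrb, highest summit, chr12:86480280-86480340: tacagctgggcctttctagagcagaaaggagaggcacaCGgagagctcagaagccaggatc
Esrrg, start, chr1:187729914-187729974: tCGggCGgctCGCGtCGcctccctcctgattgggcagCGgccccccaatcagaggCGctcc
Esrrg, highest summit, chr1:187555758-187555818: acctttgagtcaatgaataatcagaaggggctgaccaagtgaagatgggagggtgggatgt
Nr2f1, highest summit, chr13:78349822-78349882: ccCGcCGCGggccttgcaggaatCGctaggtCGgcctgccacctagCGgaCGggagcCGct
Nr2f2, highest summit, chr7:70011686-70011746: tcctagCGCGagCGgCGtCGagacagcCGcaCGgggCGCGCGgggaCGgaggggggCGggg

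The Nr2f2 window held 12 CG dinucleotides and the Nr2f1 window 8. The Esrrg start held 7, against 0 at its highest summit, which lies in an intron. The Esrrb start window held 0. Over the whole Esrrb start interval the ratio of observed to expected CG dinucleotides was 0.613, against a median of 0.197 over all intervals.

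The next windows were chosen for an element, which is in capitals. An element on the minus strand reads in reverse, as TGACCT.
Esrra, upstream of the start, chr19:6899690-6899751: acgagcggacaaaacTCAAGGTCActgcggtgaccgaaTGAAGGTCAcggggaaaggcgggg
Esrrb, strongest interval, chr12:86480490-86480550: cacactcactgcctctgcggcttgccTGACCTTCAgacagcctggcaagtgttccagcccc
Esrrg, a weak intron interval, chr1:187398266-187398324: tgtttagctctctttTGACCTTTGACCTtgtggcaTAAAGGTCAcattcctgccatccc
Esrrg, strongest interval, chr1:187559284-187559344: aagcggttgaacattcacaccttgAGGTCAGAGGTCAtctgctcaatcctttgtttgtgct
Nr2f6, upstream of the start, chr8:71836144-71836204: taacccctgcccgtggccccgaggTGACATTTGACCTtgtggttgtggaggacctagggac

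All 6 genes had an interval within 1 kb of the canonical start, as did 75.8% of protein-coding genes, and in all 6 an interval covered the start base itself, as it did in 71.2% of protein-coding genes. With backgrounds this high, the count alone does not set the 6 genes apart. Their levels differed. The value compared is the fold enrichment of the highest summit within 1 kb of the canonical start, which is the authors' ratio of pooled signal over the caller's background.

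Nr2f6 and Esrra stood together at the top, with a fold enrichment at the start of 50.9 and 50.7, higher than 84.4% and 84.3% of coding genes. Esrrg at 21.3 and Esrrb at 18.4 lay near the middle of all coding genes, whose median was 17.0 with genes lacking a summit set to 0. Nr2f2 at 12.5 and Nr2f1 at 6.55 were below that median, and 45.5% and 38.4% of coding genes were lower than them. Their low place depends on the window of 1 kb. The highest summits of their start intervals, at 39.3 for Nr2f2 and 29.3 for Nr2f1, lay outside it. The order of neighbours could not be tested, and the step between adjacent possible values was 0.0655, so the gap between Nr2f6 and Esrra is small on this scale.

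**Figure D1:**
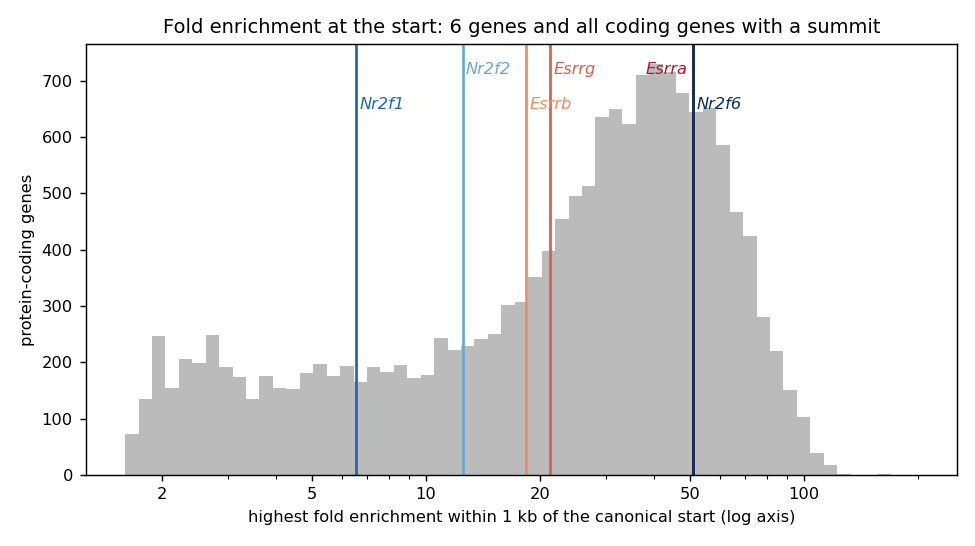
Grey bars count the protein-coding genes that have a summit within 1 kb of the canonical start by the fold enrichment of their highest such summit (log axis), and vertical lines mark the 6 genes. Nr2f6 and Esrra (50.9 and 50.7) lie within the main peak of the distribution, while Nr2f2 (12.5) and Nr2f1 (6.55) lie to the left of it. Higher summits in the start intervals of Nr2f2 (39.3) and Nr2f1 (29.3) lie outside the 1 kb and are not marked.

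The number of intervals followed gene length. Esrrg held 157 and Esrrb 35 of the 207, together 92.8%, while Esrra held 5, Nr2f2 5, Nr2f1 4 and Nr2f6 1. Most were weak: the median fold enrichment over the 207 was 2.36, against 2.55 over all intervals, and 38 (18.4%, Wilson 95% interval 13.7% to 24.2%, counting error only) reached a fold enrichment of 5, against 24.5% of all intervals. A q under 1e-05 was reached by 102 (49.3%), against 54.9%. The median width was 390 bp, against 434 bp.

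Esrrg stood out for its number of intervals even among long genes. Of 278 coding genes within 1.5 times its length, the median had 33 intervals and 97.1% had fewer than its 157. Esrrb had more intervals than 67.5% of 1562 genes of like length, whose median was 21. Nr2f1 with 4 and Nr2f2 with 5 were each at the median of their length class. Nr2f6 had fewer intervals than 63.3% of its length class, and its single wide interval covered its whole region.

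**Figure D2:**
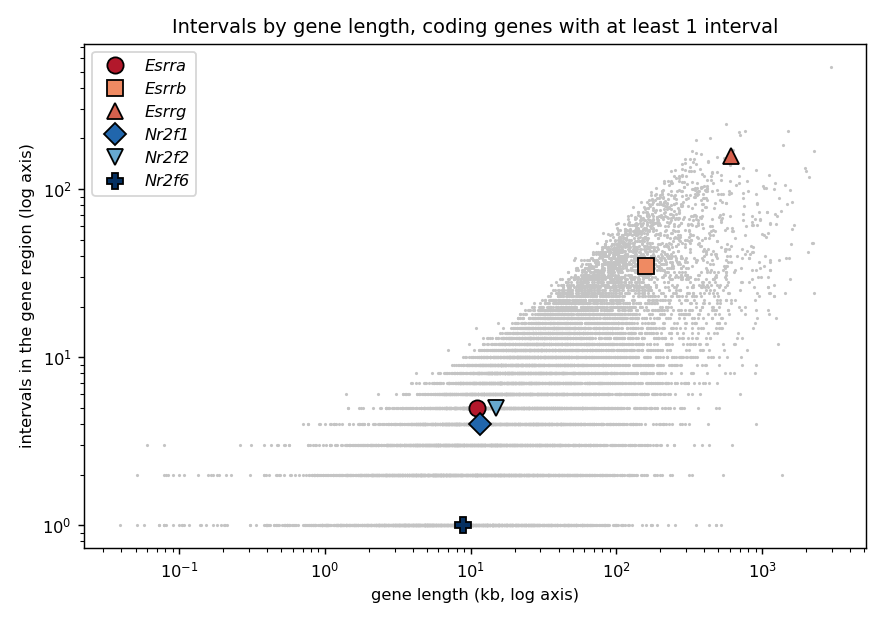
Each grey point is a protein-coding gene with at least 1 interval, by gene length (kb, log axis) and number of intervals in its region (log axis). Esrrg (157 intervals) lies near the upper edge for its length, and Esrrb (35), Esrra (5), Nr2f2 (5), Nr2f1 (4) and Nr2f6 (1) lie within the cloud.

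Esrra encodes ERRα, the ERR most widely found in oxidative tissues. The gene (ENSMUSG00000024955.17, GRCm39 chr19:6888338-6899336, minus strand) had a start interval of 9318 bp with 24 summits. Its highest summit lay 170 bp upstream of the canonical start and 19 bp from the nearest coding start, also of Esrra. The fold enrichment there was 50.7 and the -log10 q was 1012. The next highest summit of the gene was 19.0, at 1314 bp downstream. The same interval held the start of the lncRNA Gm59185, 327 bp from the Esrra start and on the other strand, so the summit cannot be assigned to 1 of the genes. It also held the start of Catsperz, a sperm channel subunit, where the fold enrichment was 3.93, and a start of the potassium channel gene Kcnk4.

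The second interval assigned to Esrra, with a fold enrichment of 44.6, had its summit beyond the 3′ end of the gene, 2 bp from a start of Trmt112. It also held the canonical start of Prdx5, a mitochondrial peroxiredoxin. The highest fold enrichment within 500 bp of that start was 29.6, and the summit nearest to it, 52 bp away, was at 12.1. The other intervals of Esrra, all in intron 2, were at 3.80, 3.67 and 1.83. Intervals covered 90.0% of the Esrra region, more than in 93.8% of genes of like length, whose median was 29.2%. The ERR elements shown above lie 524 and 547 bp upstream of the canonical start, with 14 bases between them and 354 bp from the summit to the nearer one. As background, ERRα is known to act on its own promoter. Whether any receptor was bound there was not measured.

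Esrrb encodes ERRβ, best known from stem cells, placenta and the inner ear. The gene (ENSMUSG00000021255.19, chr12:86407887-86568409, plus strand) had its strongest interval inside the gene and not at its start. That interval, chr12:86479475-86483902, lay in intron 1 of the longest transcript, 11892 bp downstream of the canonical start, with a fold enrichment of 20.4 and 11 summits. The start interval followed at 18.4, with its summit 37 bp upstream. Next came intervals at 7.66, 18732 bp upstream of the canonical start, and at 5.70, 96246 bp downstream of it. The other 31 were below 5.

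The 3 groups of annotated Esrrb starts were unequal. The outermost start, 60531 bp upstream of the canonical one, had a fold enrichment of 2.95, the canonical start 18.4, and the start 48473 bp downstream had no summit within 500 bp. An ERR element, TGAAGGTCA on the minus strand, lay in the strongest interval, 10 bp from a second summit there of 15.5. Another 4 intervals of Esrrb held the exact element TCAAGGTCA, each within 67 bp of a summit, and these summits were weak, at 1.96 to 3.08.

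**Figure D3:**
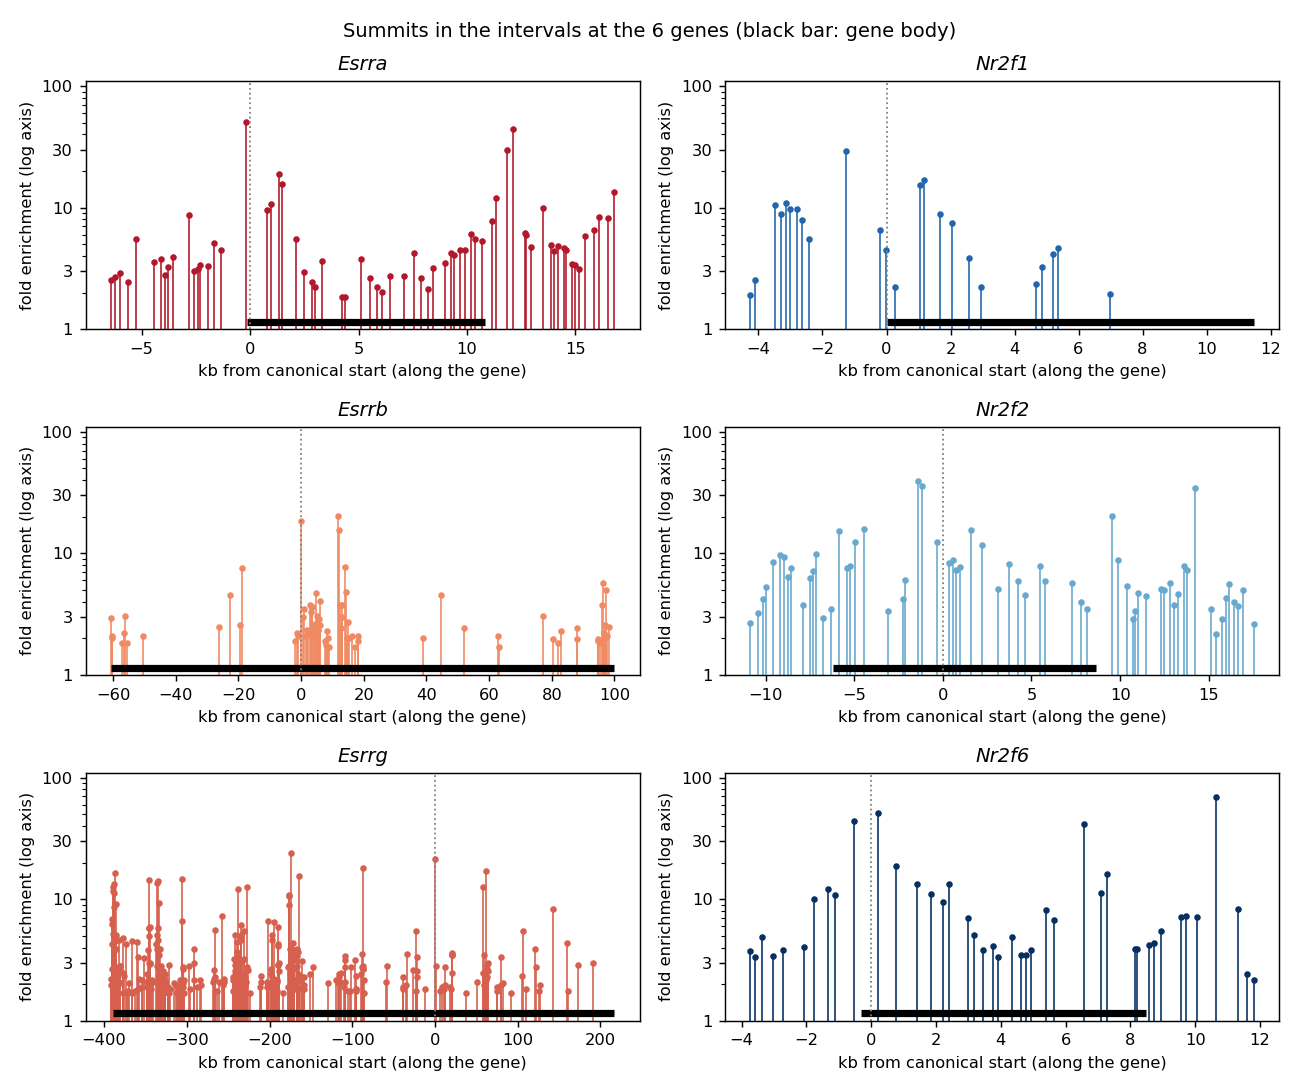
Each stem is a summit in an interval assigned to the gene, by distance from the canonical start along the gene (kb) and fold enrichment (log axis), and the black bar is the gene body. Esrra and Nr2f6 have their strongest summits inside the gene region next to the start, Esrrb and Esrrg have theirs 11892 bp downstream and 174236 bp upstream of it, and the Esrra, Nr2f2 and Nr2f6 intervals extend past the 3′ end.

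Esrrg encodes ERRγ, found in tissues of high energy demand and in the epithelium of the developing kidney. The gene (ENSMUSG00000026610.14, chr1:187340988-187947082, plus strand) spans 606095 bp and starts at 2 places 389036 bp apart. The canonical start, the more 3′ of them, had a narrow interval of 1072 bp with 1 summit, 80 bp upstream and at a fold enrichment of 21.3. Only 9.61% of coding genes with a covered start had a narrower one. The outer start had a summit at 12.7, 45 bp upstream, in an interval of 6229 bp whose highest summit was 16.6.

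The strongest site of Esrrg was neither start. It was chr1:187554843-187560202, with a fold enrichment of 24.0, 18 summits and its highest point 174236 bp upstream of the canonical start, in intron 2 of the longest transcript. The nearest annotated start of any gene was 110786 bp away. The canonical start interval, at 21.3, came second, followed by intervals at 17.9, 86895 bp upstream of the canonical start, and at 17.2, 61365 bp downstream of it.

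Within Esrrg the intervals were concentrated between the starts. The stretch before the canonical start, 392036 bp, held 126 intervals, or 3.21 per 10 kb, and the 217059 bp from it on held 31, or 1.43 per 10 kb. Of the intervals with a fold enrichment of at least 5, 21 lay before the canonical start and 4 after it. The median was similar on both sides, at 2.29 and 2.10. Introns 1 and 2 held 73 and 62 intervals, and introns 5 and 7 held none. Noncoding transcripts start inside some of the stronger ones: Gm55759 and Gm70418 at a fold enrichment of 14.4, and Gm37929, a model to be experimentally tested, at 14.0.

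Esrrg held 12 of the 25 ERR elements found at the 6 genes, 11 of them before the canonical start. Esrrg intervals made up 101131 bp of the 199.88 kb searched at the 6 genes, and 87537 bp of them lay before the canonical start, so both counts follow the length of sequence searched. The rate was 1.19 ERR elements per 10 kb of interval at Esrrg, 1.25 over the 6 genes and 0.757 over all intervals. At 1 site, chr1:187398004-187398715, a DR1 and an ERR element stood 7 bases apart, 8 and 26 bp from the summit, which had a fold enrichment of only 2.82. The other DR1 of Esrrg was in its strongest interval, 3526 bp from the highest summit and 26 bp from a summit of 3.14. Both DR1 therefore lay close to weak summits.

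Nr2f1 encodes COUP-TFI, known from the developing nervous system. At Nr2f1 (ENSMUSG00000069171.16, chr13:78337092-78348578, minus strand), the start was flanked by stronger sites. The highest summit within 1 kb of the canonical start, 190 bp upstream, had a fold enrichment of 6.55, while the summit 1274 bp upstream had 29.3 and that 1167 bp downstream, in exon 1 of the longest transcript, had 17.0. The opposite-strand lncRNA A830082K12Rik has 22 annotated starts inside the start interval, the nearest 154 bp from the summit of 29.3, and its canonical start was at 9.82. Another lncRNA, Gm61107, starts in the same interval at 10.5. The remaining intervals, in intron 2, were at 4.65 and 1.96.

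Nr2f2 encodes COUP-TFII, which specifies veins and is found in stromal and endothelial cells of the kidney. Nr2f2 (ENSMUSG00000030551.16, chr7:70001692-70016519, minus strand) also had higher summits on either side of its canonical start, which had a fold enrichment of 12.5. The highest downstream within the gene was 15.6, at 1571 bp. The other starts of Nr2f2 had 36.0 (742 bp upstream of the canonical one), 15.2 (6178 bp upstream) and 8.77 (672 bp downstream), and the highest summit of all, 39.3, lay 1375 bp upstream of the canonical start. The start interval was 8841 bp wide with 17 summits.

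A second strong site flanked Nr2f2 at its 3′ end. The interval chr7:69992671-70001831 had a fold enrichment of 34.4, with its summit 14225 bp downstream of the canonical start, beyond the gene and 323 bp from a start of the lncRNA Gm29683. Another interval, at 15.8, covered the start of the opposite-strand lncRNA B130024G19Rik. The other intervals were at 5.70 and 3.34. Intervals covered 90.4% of the Nr2f2 region, more than in 96.0% of genes of like length, whose median was 27.3%. The lncRNA Gm72772 starts 83 bp from the canonical start on the other strand.

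Nr2f6 encodes EAR2. The whole of Nr2f6 (ENSMUSG00000002393.16, chr8:71826456-71835239, minus strand) lay inside 1 interval, chr8:71823081-71838950, which was 15870 bp wide with 42 summits. It was wider than 98.3% of the intervals over coding starts, whose median width was 3083 bp. Its highest summit, 69.9, belonged to the far side: it lay 10650 bp downstream of the Nr2f6 start and 338 bp from the nearest coding start of Ocel1, the convergent neighbour. At Nr2f6 itself the summits were 50.9 at 214 bp downstream of the canonical start, 43.9 at 516 bp upstream and 41.8 in the gene body at 6567 bp, 77 bp from the start of Nr2f6 transcripts with no defined coding sequence. The DR1 shown above, which has 1 mismatch, lay 1250 bp upstream and 86 bp from a summit of 12.2. Nr2f6 also held an exact DR1, in an exon 4020 bp downstream of the start and 119 bp from a summit of 3.34.

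CpG content over all intervals of a gene had a higher median at each COUP-TF gene than at each ERR gene, but the families overlapped at the start intervals. The ratio of observed to expected CG dinucleotides had a median of 0.636 over the 4 intervals of Nr2f1, 0.451 over the 5 of Nr2f2 and 0.438 in the single interval of Nr2f6. It was 0.250 over the 35 of Esrrb, 0.216 over the 157 of Esrrg and 0.121 over the 5 of Esrra, and 0.197 over all intervals. In the start interval alone it was 0.423 at Esrra, 0.613 at Esrrb and 0.673 at Esrrg, and 0.536 at Nr2f1, 0.616 at Nr2f2 and 0.438 at Nr2f6. The numbers of intervals are very unequal and the COUP-TF intervals are wide, so the families were not tested against each other.

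**Figure D4:**
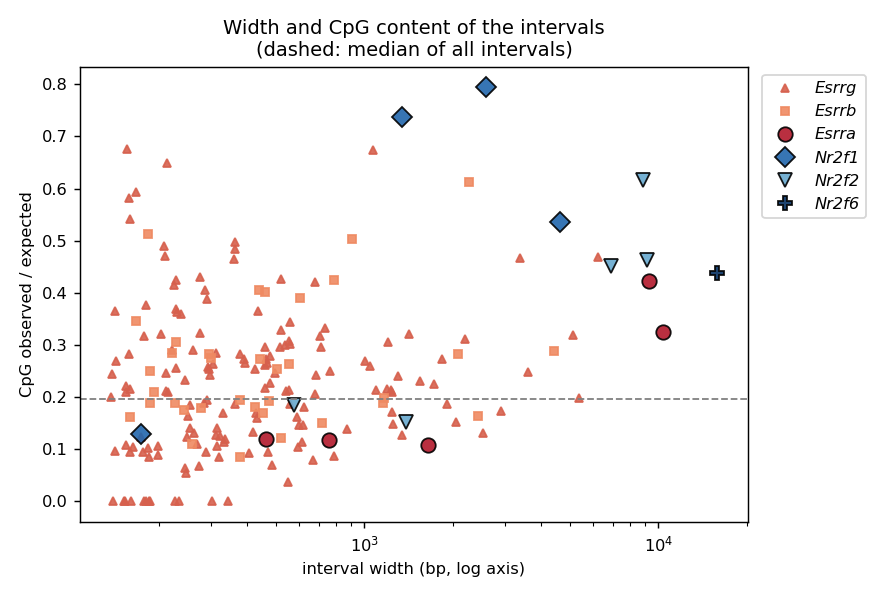
Each point is an interval, by width (bp, log axis) and ratio of observed to expected CG dinucleotides, and the dashed line is the median of all intervals, 0.197. The wide intervals of Nr2f2 and Nr2f6 and the larger intervals of Nr2f1 lie above the line, while Esrrg and Esrrb intervals lie on both sides of it.

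An ERR element was present in 22 of the 207 intervals (10.6%, Wilson 95% interval 7.12% to 15.6%), against 6.10% of all intervals and 6.17% of intervals of like width. By family, it was present in 19 of 197 intervals at the ERR genes (9.64%, against 5.21% at like width) and in 3 of 10 at the COUP-TF genes, against 25.2% at like width. The exact letters TCAAGGTCA were in 13 of the 197 intervals at the ERR genes (6.60%, against 2.42% at like width) and in 0 of the 10 at the COUP-TF genes, where the share at like width was 13.9%, so the 10 intervals are too few to tell the families apart. The exact DR1 was present in 3 intervals (1.45%, against 0.304% of all intervals), which is too few to rank the genes. In a window of 200 bp centred on the highest summit the ERR element was in 6 intervals (2.90%, against 1.68% of all). These shares describe letters and not binding, and intervals of 1 gene are not independent of each other.

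All listed coregulators, partners and target genes of these receptors had an interval at the start, beside 75.8% of coding genes. Coregulators and partners had a start interval in 14 of 14 cases, with a median fold enrichment of 30.6, led by Nrip1 (70.9), a corepressor of nuclear receptors, Sirt1 (51.0), a deacetylase, and Ppargc1a (36.2), which encodes the ERR coactivator PGC-1α. The lowest were Bcl11b (10.4), Zfpm2 (11.4), Bcl11a (13.7) and Prox1 (13.9). These were below the median of all coding genes, 17.0, and the rest of the list was above it. Known ERR target genes of oxidative metabolism had one in 14 of 14, with a median of 46.7, against 17.0 over all coding genes. The highest ERR targets were Pdk4 (107), which holds back pyruvate oxidation, Acadm (91.3), of fatty acid oxidation, and Cycs (65.4), cytochrome c. The median over the 6 receptor genes was 19.8.

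Known COUP-TF target genes of vessels and stroma had a start interval in 6 of 6, with a median of 22.5. Hey2 (80.1), an arterial regulator, Ephb4 (45.1), a vein marker, and Notch1 (22.7) were the highest. Of the 43 other nuclear receptor genes, 39 had a start interval, with a median of 22.5. The highest were Nr1d2 (101), a clock repressor, Nr3c2 (89.7), the mineralocorticoid receptor, and Nr2c2 (72.9). Thrb, Nr1h5, Nr2e3 and Nr5a1 had none within 1 kb.

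**Figure D5:**
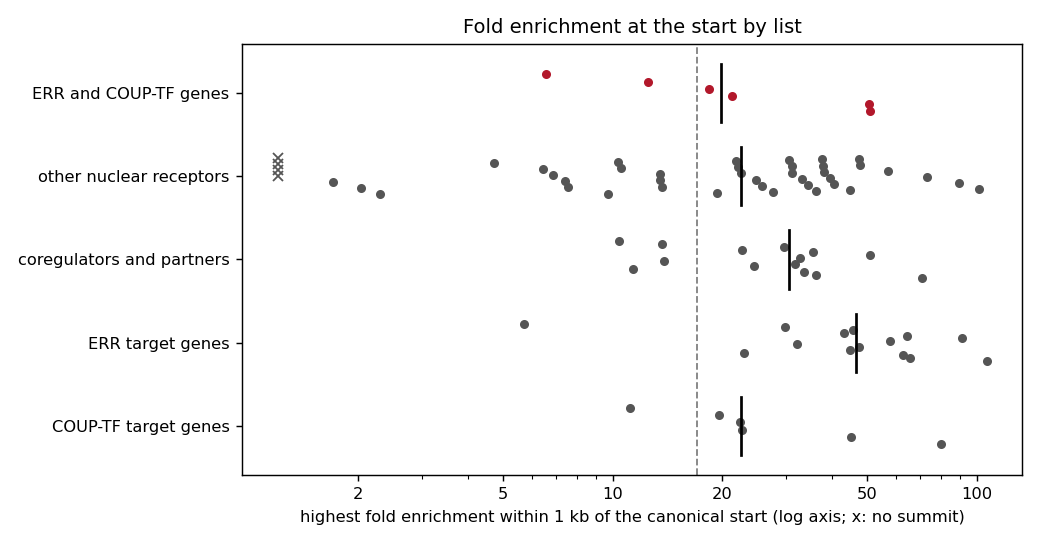
Each point is a gene by the fold enrichment of the highest summit within 1 kb of its canonical start (log axis), crosses are genes with no summit there, black bars are list medians with such genes set to 0, and the dashed line is the median of all coding genes, 17.0. The ERR target genes have the highest median (46.7), and the 6 receptor genes (red, median 19.8) spread from 6.55 to 50.9.

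The tissue label was checked with marker genes. Kidney tubule markers had a start interval in 8 of 8 cases, from 4.19 to 162, podocyte markers in 3 of 3, from 3.14 to 17.4, endothelial markers in 4 of 4, from 2.03 to 45.1, stromal markers in 3 of 4, from 5.63 to 10.9 (none at Ren1), immune markers in 2 of 3, at 1.90 and 11.2 (none at Cd3e), and genes of other organs in 3 of 5, from 2.49 to 3.40 (none at Myh6 and Sftpc). Beside 75.8% of all coding genes these counts do not set the marker lists apart. The 162 was that of Cdh16, whose promoter is also in the Cre transgene, and the next highest tubule marker was Lrp2 at 33.1. The tubule median was 9.03, against 17.0 over all coding genes, and Aqp2 (4.19) and Slc12a3 (4.39) were little above the genes of other organs. All these values are of the 1 kb around the canonical start and leave out stronger intervals elsewhere. The strongest interval of Slc12a3 was at 38.2, and among genes of other organs that of Alb was at 21.0 and that of Sftpc at 19.0. The endothelial markers Pecam1 (2.03) and Emcn (2.75), the podocyte marker Nphs1 (3.14) and the immune marker Ptprc (1.90) were no higher than the genes of other organs reached, and the higher endothelial values were those of Ephb4 (45.1) and Nr2f2 (12.5). The contribution of these cell types to the pool therefore cannot be read from the list. Nr2f2 is itself counted among the endothelial markers, and the share of its signal that came from each cell type was not tested.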

How the data were processed

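Kidney cortex ATAC-seq libraries were grouped by genotype from their labels (3 WT, 3 Acly cKO). The study's methods describe further WT libraries that are not among these, and whether they are in the pool is not stated. By the methods, reads were trimmed (fastp) and mapped to mm39 (GRCm39) by the authors with Bowtie2 2.3.4.3, and duplicates and multiply mapped reads were dropped. Peaks came from MACS3 3.0.0, and bedtools 2.29.1 was used to take out the blacklist and the unplaced sequences. The methods give a positive shift beside the extension, whereas centring on the Tn5 cut takes a negative one, so summit positions may be displaced. The deposited ratio is the fold enrichment of each summit over a background, computed by the authors. The deposited -log10 q is that of the authors' caller. All 609 member summits under 20-fold were whole multiples of 0.0655 (tolerance 0.05 of a step), and none of the 544 summits in the gene regions was removed by the filter. There were 0 unused columns of single samples.

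Rows were grouped into distinct intervals, each valued at the summit with the best q, and placed on GENCODE M39. Starts of coding transcripts less than 500 bp apart were treated as 1. Genes of like length lay within 1.5 times the length, and intervals of like width were the 2000 nearest in width to each. Elements were searched on both strands of GRCm39. Python 3.11.15, numpy 2.4.6, scipy 1.17.1, pandas 2.3.3 and matplotlib 3.10.9 were used, and the scripts were tested on simulated data.

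The genes named are the 6 members, with the start interval and the 3 strongest other intervals of each, genes starting inside a start interval and, from each list, at most 3 with the highest fold enrichment at the start and those without a start interval. Other features were named after their values were seen. The members and lists were chosen with earlier results of these data known.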

Additional observations from a re-analysis of the deposited data

How the results depend on the processing

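The 207 intervals at the 6 genes became 206 with the gene body only, 231 with 10 kb on either side, 204 when the highest summit had to lie in the region, 205 when at least 50% of the interval did, 171 at a q under 0.01 and 200 with intervals at most 150 bp apart joined. The number moved to 102 at a q under 1e-05, to 38 at a fold enrichment of at least 5 and to 544 when summits were counted. The count of 6 genes with a start interval was unchanged at a q under 1e-05 and when the start base had to be covered. The share with an ERR element moved from 10.6% to 2.90% in a window of 200 bp centred on the highest summit and to 6.28% for the exact element. The share with a DR1 moved from 1.45% to 0.483% in that window and to 4.35% with 1 mismatch, and the narrower window and the stricter or looser letters account for these moves by construction. Of 72 alternatives for single genes, 18 moved a value by over 1.5 times: 16 were interval counts, and the other 2 were the start value at Nr2f1 (29.3 for the interval, 6.55 within 1 kb) and Nr2f2 (39.3 and 12.5). Restricting Nr2f6 to summits inside its region, a setting chosen after seeing the data, lowered its highest fold enrichment from 69.9 to 50.9. No paired analysis was possible because the deposited call pools the libraries, and for the same reason no replicate could be left out. Depth per library is unknown, so a site absent from the list was not detectable in this pool and is not shown to be closed.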

Other observations

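Cdh16, whose promoter drives Cre in the Acly cKO mice, had the highest fold enrichment at the canonical start of all protein-coding genes, 162. The Cre transgene carries a copy of that promoter, and reads from the copy and from Cdh16 itself cannot be told apart here. The pool holds no column that would show Cdh16 in WT and Acly cKO libraries separately.

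Thrb, which had no summit within 1 kb of its canonical start, held 102 intervals, the strongest with a fold enrichment of 61.3. Among the genes described above, Esrrg is the one with the most intervals (157), and its strongest was at 24.0.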
